A study of Mus musculus with 10 samples.

Results

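The genes described here encode potassium channels, voltage-gated calcium channels, TRP cation channels, ClC chloride channels and exchangers, the store-operated calcium entry machinery and Piezo channels. They were chosen by symbol and by level: of 158 genes in the tables with a matching name, the 47 with a summed expected count of 60 or more over the 6 libraries were kept, out of 41813 genes in all. The summed level therefore chose the members and is no finding. Just inside that floor were Kcnab1 (73.0 counts), Kcnf1 (72.0) and Kcnip4 (66.5), and just outside it Cacna1s (56.6), Kcnip3 (55.0) and Kcnk7 (50). Another 49 of the 158 had no count in any library. Of the 47, Trpc4ap encodes an adaptor protein and Kcnq1ot1 a long non-coding RNA on the strand opposite Kcnq1, so neither is a channel.

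RNA came from mouse bone marrow-derived dendritic cells recorded as CD11c+ MHCIIhigh, 3 libraries titled activated and 3 titled non-activated. In the series design, all cells were given LPS, were pulsed or not with the ovalbumin peptide OVA323-339 and then spent 24 h with CD4+ OT-II T cells, which recognise that peptide. The sample labels differ from this: under stimulation they list LPS for the activated libraries and none for the rest, so the groups go here by their titles. No genotype, age or sex is given for the mice. It is not stated if a replicate is a mouse or a culture of its own, and a p-value here covers the spread among these libraries and may be technical. Summed expected counts ran from 21338012 to 27404937 per library. Another 4 samples, labelled ATAC-seq, were not analysed here.

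Dendritic cells do not fire action potentials, but their channels set the membrane potential and let calcium in. Potassium channels and background leak channels hold the membrane negative, which drives calcium entry. When the calcium store of the endoplasmic reticulum empties, the STIM sensors open the ORAI pores, and the calcium that enters activates calmodulin, calcineurin and NFAT. TRP channels pass calcium and sodium in response to stretch, heat, lipids or intracellular calcium, and ClC proteins exchange chloride for protons in endosomes and lysosomes.

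All 47 genes passed the filter on low counts and were tested among 13946 genes. At an edgeR adjusted p under 0.05, 18 of 47 differed between the groups, where 27.6% of all genes tested did. In activated cells 15 were higher (31.9%, against 15.9% of all genes) and 3 lower (6.38%, against 11.7%). The other 29 did not pass. A called change of 2-fold or more was seen upward in 10 of the 47 genes (against 6.3% of all genes) and downward in 1 (against 2.65% of all genes). The median log2 fold change of the 47 was 0.15, beside 0.01 for all genes tested. With the replicate number as a block, 17 were higher and 6 lower, where 20% and 17.2% of all genes were. The filter bears on these counts: 8 genes cleared it in every activated library but not in every non-activated one. Of those 8, 5 were called higher, and all 5 are among the 10 genes that were at least 2-fold higher. Another 35 cleared it in every library, of which 10 were higher (28.6%) and 3 lower (8.57%). The share called among all genes that cleared it in every library was not computed. By libraries rather than by test, 19 of 47 genes had all 3 activated values above all 3 non-activated values (40.4%, against 24% of all genes) and 7 had them all below (14.9%, against 20.7%). Among the 35 genes that cleared the filter in every library, 12 had them all above (34.3%) and 7 all below (20%). The median log2 fold change of these 35 was 0.08. The like values for all genes that cleared it in every library were not computed.

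**Figure D1:**
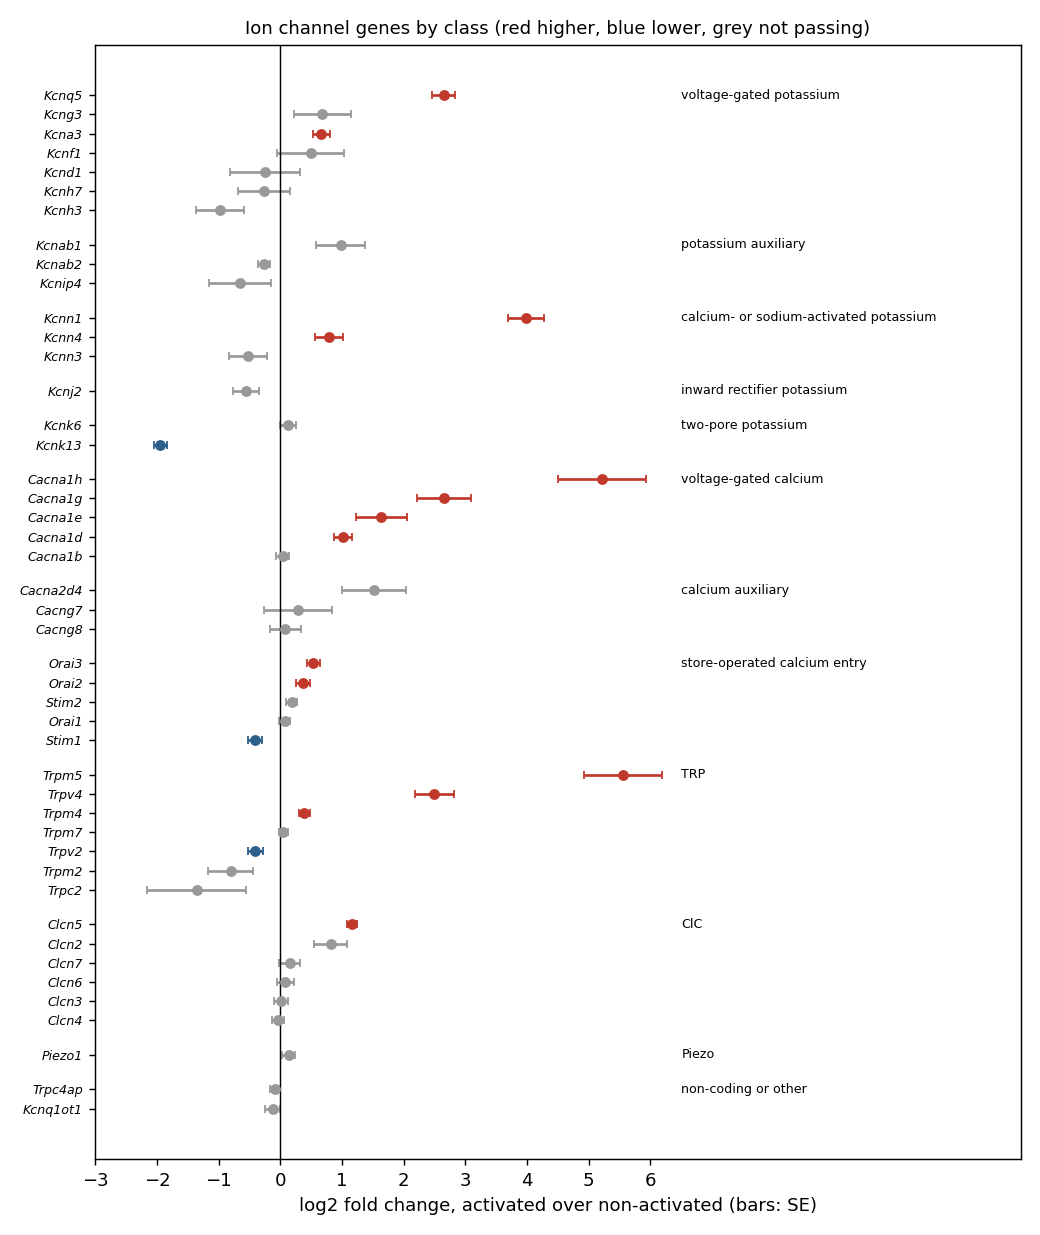
Log2 fold change of the ion channel genes reported here, activated over non-activated, with its SE from the edgeR fit, grouped by channel class. Red points are genes called higher, blue points the 3 called lower and grey points genes that did not pass. Kcnk13 lies alone below -1 among the called genes.

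Libraries were first checked for cells other than dendritic cells. Of 14 dendritic cell markers 7 rose (50%), 0 fell and 7 did not pass, where 15.9% of all genes tested rose and 11.7% fell. Among those that did not pass was Itgax, which encodes CD11c. Its means were 323 CPM for activated and 346 CPM for non-activated libraries (CPM, read counts relative to library size after TMM scaling). The 14 markers summed to 17390 to 20140 CPM in activated and 15250 to 17710 CPM in non-activated libraries. The T cell receptor constant genes Trac and Trbc2 stood apart in both libraries numbered 1: Trac was at 7420 CPM in the activated and 7444 CPM in the non-activated one, and at 2.73 to 27.8 CPM in the other 4, while Cd3e was at 0.152 to 1.90 CPM in all 6. Without Trac and Trbc2, the remaining 16 T cell markers summed to 43.8 to 63.8 CPM in activated and 33.2 to 61.7 CPM in non-activated libraries. Cd28 and Thy1 made up much of these sums and had lower means in activated cells; without them, a choice made after seeing the values, the other 14 summed to 44.0, 14.4 and 15.7 CPM in activated replicates 1 to 3 and to 8.03, 8.81 and 6.71 CPM in the non-activated ones. Of the 18, 8 had all activated values above all non-activated ones and 0 had them below, against 24% and 20.7% of all genes tested. By the test, 3 rose (Lck, Zap70 and Cd247), 0 fell, 6 did not pass and 9 were too low to test. The 8 B cell markers summed to 7.27 to 11.3 CPM in activated and 0.961 to 1.495 CPM in non-activated libraries, with Fcer2a at means of 5.75 and 0.164 CPM. Among 10 macrophage and monocyte markers Mertk was the 1 that rose and 3 fell, C5ar1 and Fcgr1 among them, with sums of 1994 to 3397 and 2746 to 3482 CPM. Of 8 mast cell and basophil markers Hdc rose and Gata2 and Kit fell (146 to 203.2 against 135 to 178 CPM), while 1 of 7 NK cell and 1 of 9 neutrophil markers could be tested and neither passed (sums of 5.35 to 14.6 against 12.1 to 24.6 CPM, and 1.98 to 3.02 against 1.42 to 3.12 CPM). What part such cells have in the values below was not tested. In bulk RNA, fewer cells of a type and less RNA per cell cannot be told apart.

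Voltage-gated potassium channels open on depolarisation and pull the membrane back to rest. Of 9 such genes 3 rose, 0 fell and 6 did not pass, where 15.9% of all genes tested rose and 11.7% fell. Kcnq5, a slowly opening channel of the M-current family, stood at 10.6, 11.5 and 8.73 CPM in activated replicates 1 to 3 and at 1.48, 1.64 and 1.78 CPM in the non-activated ones. The groups did not overlap, and its RNA was 6.27-fold higher (log2 2.65 ± 0.19, SE, n = 3 per group; edgeR adjusted p = 4.99e-05). Kcna3, the channel that sets the membrane potential of many lymphocytes, was at 9.11, 9.47 and 9.14 CPM against 6.36, 5.29 and 5.80 CPM without activation, a 1.59-fold difference (edgeR adjusted p = 0.00873). T cell markers differed between the groups too, as given above, and their part in this difference was not tested. Kcnh3 stood at 1.13 ± 0.273 against 2.25 ± 0.922 CPM (SD, n = 3; edgeR adjusted p = 0.0977, and 0.0451 with the block). Kcng3, Kcnf1, Kcnd1 and Kcnh7 had group means from 0.416 to 1.37 CPM and overlapping groups.

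Auxiliary and inward rectifier genes gave no call. Kcnab2, a cytoplasmic beta subunit of voltage-gated channels with 32.5 ± 3.27 TPM in activated and 41.8 ± 4.57 TPM in non-activated cells (SD, n = 3; TPM, the deposited values per transcript length), was by far the best expressed of the 3 auxiliary genes. Its CPM were 64.3, 75.4 and 75.8 in activated and 83.9, 92.1 and 82.9 in non-activated libraries, with no overlap (log2 -0.27 ± 0.09, SE; edgeR adjusted p = 0.0646, and 0.022 with the replicate block). Kcnab2 also passed as lower with DESeq2 size factors (edgeR adjusted p = 0.04765), with no low-count filter (edgeR adjusted p = 0.04775) and in DESeq2 (DESeq2 adjusted p = 0.04278). Kcnj2, the one inward rectifier kept of 15 named Kcnj genes, was at 3.15 ± 0.667 against 4.65 ± 0.347 CPM (SD, n = 3; edgeR adjusted p = 0.0911). It passed when activated replicate 1 was left out (0.0429).

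Calcium-activated potassium channels link a rise in calcium to a more negative membrane. Kcnn4, the intermediate-conductance channel of blood cells, was the most abundant potassium channel RNA here, at 120.5 ± 34.4 TPM in activated and 73.5 ± 22.3 TPM in non-activated cells (SD, n = 3). Its CPM were 99.8, 164 and 166 in activated and 63.5, 102 and 83.4 in non-activated replicates 1 to 3. The groups overlapped, since the lowest activated value lay below the highest non-activated one, yet each activated library exceeded the non-activated one of the same number, by 0.65, 0.69 and 0.99 on the log2 scale. The 1.73-fold difference passed (edgeR adjusted p = 0.0309), but was lost on leaving out activated library 2 or 3, or library 1 or 3 of the other group (0.0814 to 0.103) and on the deposited TPM (limma adjusted p = 0.123), within 0.000238 to 0.123 over all alternatives. Kcnn1, a small-conductance channel best known from neurons, went from 0.571, 0.546 and 1.02 CPM to 12.9, 12.3 and 8.67 CPM, 15.8-fold higher (log2 3.98 ± 0.29, SE; edgeR adjusted p = 5.46e-05). Kcnn3, of the same family, was at 1.59 ± 0.265 CPM in non-activated and 1.11 ± 0.221 CPM in activated cells (SD, n = 3) and did not pass (edgeR adjusted p = 0.249).

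The tandem-pore channels carry the background potassium leak. Kcnk13, a leak channel known to set the resting potential of microglia, gave the smallest p of the 47 genes and fell in activated cells. Its CPM were 45.9, 37.6 and 41.3 in the non-activated and 11.3, 10.0 and 10.9 in the activated libraries. The groups lay far apart, and its RNA was 0.259 times the non-activated level (log2 -1.95 ± 0.11, SE, n = 3 per group; edgeR adjusted p = 1.52e-05). The fall was -1.90 to -2.01 on the log2 scale within each of the 3 replicate numbers. Kcnk6, a leak channel also found in endolysosomes, stood at 68.1 ± 1.93 CPM in activated against 62.5 ± 11.7 CPM in non-activated cells (SD, n = 3) and did not pass (edgeR adjusted p = 0.509).

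**Figure D2:**
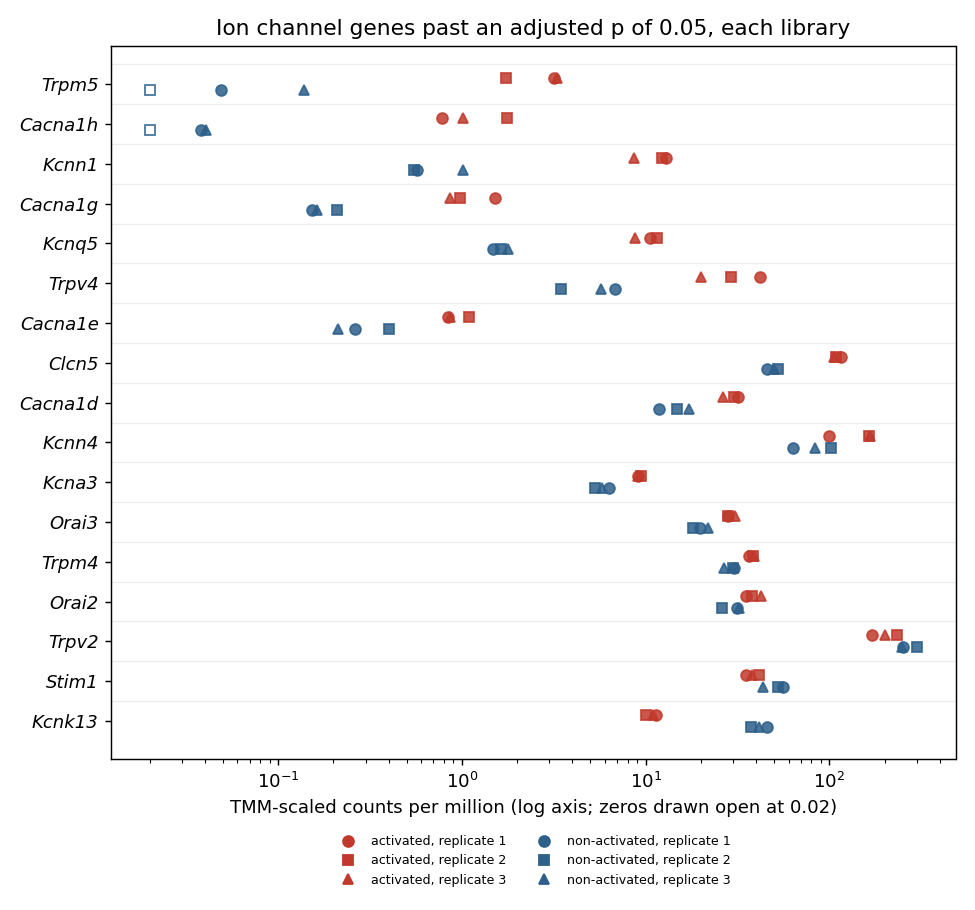
TMM-scaled CPM (log axis) of the called genes reported here in each of the 6 libraries, ordered by log2 fold change, with marker shapes for replicate numbers and zeros drawn as open symbols at 0.02. The groups overlap for Kcnn4 alone among those drawn, and Kcnk13 shows the widest gap among the 3 genes that fell.

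Voltage-gated calcium channels admit calcium on depolarisation. Of the 5 pore-forming genes 4 rose, where 15.9% of all genes tested did, but 3 of these 4 cleared the low-count filter through the activated libraries alone. Cacna1d, an L-type channel that opens at fairly negative voltages, was at 32.0, 30.4 and 26.3 CPM in activated against 11.8, 14.8 and 17.2 CPM in non-activated libraries. The groups did not overlap and the difference was 2.03-fold (log2 1.02 ± 0.15, SE; edgeR adjusted p = 0.00148). On the scale of log2(deposited TPM + 1) the difference was 0.90 and missed the threshold (limma adjusted p = 0.0539). All alternatives gave from 6.84e-08 to 0.0583. Cacna1d shares 11671 bases of its span with Dcp1a, whose RNA was at 60.4 and 52.6 CPM and did not pass (edgeR adjusted p = 0.116); without strand, reads of shared bases cannot be told apart.

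The T-type genes Cacna1g and Cacna1h, whose channels open near the resting potential, and the R-type gene Cacna1e were at the lower limit of detection. Cacna1h had 82 counts in activated and 2 in non-activated libraries, a ratio of 42.7 with a 95% counting interval of 11.5 to 358 (edgeR adjusted p = 0.00113). Cacna1g had 82 counts against 13, a ratio of 6.57 (3.64 to 12.9; edgeR adjusted p = 0.00293), and Cacna1e 66 against 22, a ratio of 3.12 (1.90 to 5.32; edgeR adjusted p = 0.0198). All 3 cleared the low-count filter through the activated libraries, so that a difference was built into their being tested. On the deposited TPM, Cacna1g (limma adjusted p = 0.121) and Cacna1e (0.512) lost their calls, with ranges of 0.000748 to 0.121 and 0.0186 to 0.512 over all alternatives. Cacna1e also lost it when activated library 2, or library 1 or 3 of the other group, was left out (edgeR adjusted p 0.0565 to 0.0671) and without both libraries numbered 1 (0.0881). Cacna1b, the N-type channel of presynaptic terminals, was the most abundant per length, at 16.2 ± 6.11 TPM in activated and 11.9 ± 0.642 TPM in non-activated cells (SD, n = 3), and its CPM hardly differed (36.0 ± 3.99 against 35.0 ± 3.15, SD, n = 3; edgeR adjusted p = 0.841). Of the auxiliary genes, Cacng8, which in neurons accompanies glutamate receptors, stood at 9.57 ± 2.95 against 9.06 ± 1.93 CPM (SD, n = 3) and did not pass (edgeR adjusted p = 0.84). Cacna2d4 had 58 counts against 21 (edgeR adjusted p = 0.0619) and Cacng7 46 against 38.

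All 5 genes of store-operated calcium entry were kept. Orai2 and Orai3 rose and Stim1 fell, while Orai1, the pore subunit that carries most of this current in T cells, did not pass. Orai3 was at 28.0, 28.2 and 30.8 CPM in activated against 19.8, 18.2 and 22.0 CPM in non-activated libraries, a 1.45-fold difference with no overlap (log2 0.54 ± 0.10, SE; edgeR adjusted p = 0.00503). Orai2 was at 35.0, 37.9 and 42.7 against 31.3, 25.9 and 32.4 CPM, 1.29-fold higher with no overlap (log2 0.37 ± 0.12, SE; edgeR adjusted p = 0.045). That call was lost on DESeq2 size factors (0.053), on the deposited TPM, and without any 1 library except activated replicate 1, within 0.0134 to 0.16 over all alternatives. Orai1 was at 41.3, 48.3 and 43.1 against 41.1, 43.1 and 42.5 CPM, with overlapping groups (log2 0.07 ± 0.08, SE; edgeR adjusted p = 0.605). Stim1, the calcium sensor of the endoplasmic reticulum, was at 35.3, 41.3 and 38.1 CPM in activated against 55.7, 52.8 and 43.5 CPM in non-activated libraries, 0.754 times as high with no overlap (log2 -0.41 ± 0.11, SE; edgeR adjusted p = 0.0262). The Stim1 call was lost on leaving out activated library 3, or library 1 or 2 of the other group (0.0611 to 0.0884), without both libraries numbered 1 (0.106) and on the deposited TPM (limma adjusted p = 0.177), within 0.00672 to 0.177 over all alternatives. Stim2, a sensor of smaller losses of stored calcium, was at 49.2, 43.6 and 43.8 against 41.3, 38.1 and 41.0 CPM, without overlap, and did not pass (edgeR adjusted p = 0.144).

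**Figure D3:**
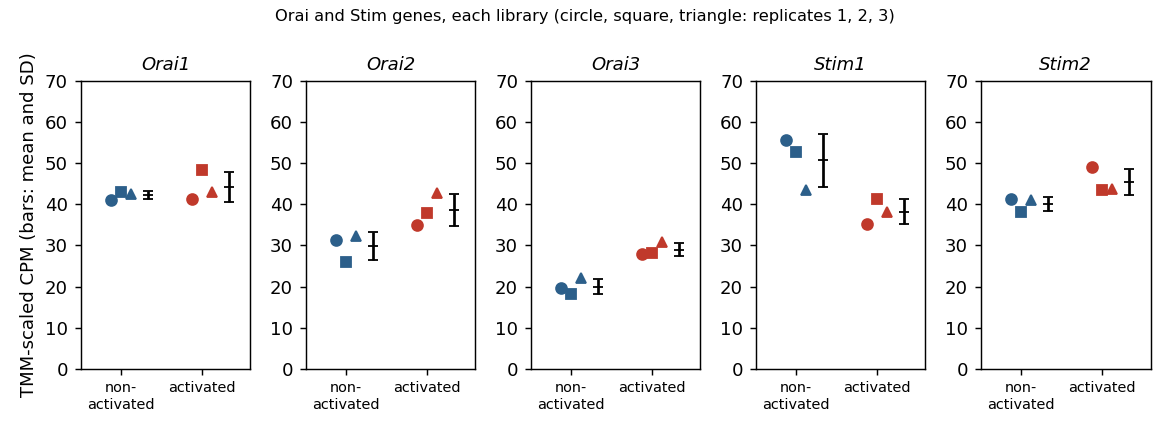
TMM-scaled CPM of the Orai and Stim genes in each library, on axes from 0, with group means and SDs beside the points. Orai2 and Orai3 lie higher and Stim1 lower in the activated libraries, and Orai1 overlaps between groups.

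Of 7 TRP genes 3 rose and 1 fell, where 15.9% of all genes tested rose and 11.7% fell. Trpv4, a calcium-permeable channel opened by swelling, warmth and lipid mediators, went from 6.85, 3.45 and 5.76 CPM to 41.7, 29.2 and 20.0 CPM. The lowest activated library was well above the highest non-activated one, and the difference was 5.65-fold (log2 2.50 ± 0.31, SE; edgeR adjusted p = 0.000743). Per length it went from 2.72 ± 0.786 to 15.8 ± 5.19 TPM (SD, n = 3). Trpm5, a calcium-activated sodium and potassium channel of taste cells, had 202 counts in activated and 5 in non-activated libraries, a ratio of 42.1 with a 95% counting interval of 17.7 to 131 (edgeR adjusted p = 0.000474), and cleared the filter through the activated libraries. The gene length weighted over its transcripts averaged 728 bases in the activated libraries, the shortest of the 18 called genes.

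Trpm4, which also passes sodium and potassium in response to calcium, was much better expressed, at 30.1 ± 2.06 TPM in activated and 22.5 ± 1.53 TPM in non-activated cells (SD, n = 3). Its CPM were 36.5, 38.5 and 38.8 against 30.3, 29.9 and 26.7, a 1.31-fold difference with no overlap (edgeR adjusted p = 0.0106). Trpv2, a cation channel of phagocytes, was the second most abundant of all 47 genes per length and fell, from 252, 301 and 248 CPM to 170, 233 and 201 CPM (log2 -0.40 ± 0.13, SE; edgeR adjusted p = 0.0486). That call was lost without any 1 library except activated replicate 2 (0.0757 to 0.161), without both libraries numbered 1 (0.0727) and on the deposited TPM (limma adjusted p = 0.0894), within 0.00399 to 0.161 over all alternatives. Trpm7, a channel fused to a kinase that takes up magnesium and zinc, stood at 146 ± 5.97 against 141 ± 5.80 CPM (SD, n = 3; edgeR adjusted p = 0.663). Trpm2, opened by ADP-ribose under oxidative stress, had 38 counts in activated and 69 in non-activated libraries (edgeR adjusted p = 0.139). Trpc2, which lies within the span of the read-through gene Xntrpc, was at 0.0903 to 1.29 CPM in activated and 0.717 to 4.37 CPM in non-activated libraries (edgeR adjusted p = 0.246, and 0.0388 with the replicate block). Xntrpc itself was at 2.46 against 5.75 CPM and passed as lower (log2 -1.24, edgeR adjusted p = 0.0439).

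Among the 6 ClC genes only Clcn5 passed, where 27.6% of all genes tested did. It encodes a chloride-proton exchanger of endosomes, whose loss causes an inherited kidney tubule disease. It stood at 116, 109 and 106 CPM in activated against 45.9, 52.3 and 49.7 CPM in non-activated libraries. The 2.23-fold difference (log2 1.16 ± 0.08, SE, n = 3 per group) had one of the smallest p-values of the 47 (edgeR adjusted p = 4.99e-05). Clcn7, the lysosomal exchanger, was the most abundant of the 47 genes per length, at 147 ± 32.9 TPM in activated and 133 ± 10.6 TPM in non-activated cells (SD, n = 3), and did not pass (edgeR adjusted p = 0.552). Clcn2, a chloride channel of the cell surface, was at 3.31, 4.17 and 2.37 against 1.83, 2.02 and 1.74 CPM, without overlap (edgeR adjusted p = 0.0569, and 0.0407 with the replicate block). Clcn3, Clcn4 and Clcn6, which serve endosomes and lysosomes, had log2 fold changes of 0.00, -0.03 and 0.08 and overlapping groups. The mechanically gated channel Piezo1 was at 266 ± 32.8 CPM in activated against 242 ± 16.8 CPM in non-activated cells (SD, n = 3; edgeR adjusted p = 0.399), and Trpc4ap and Kcnq1ot1 did not pass either (0.462 and 0.505).

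**Figure D4:**
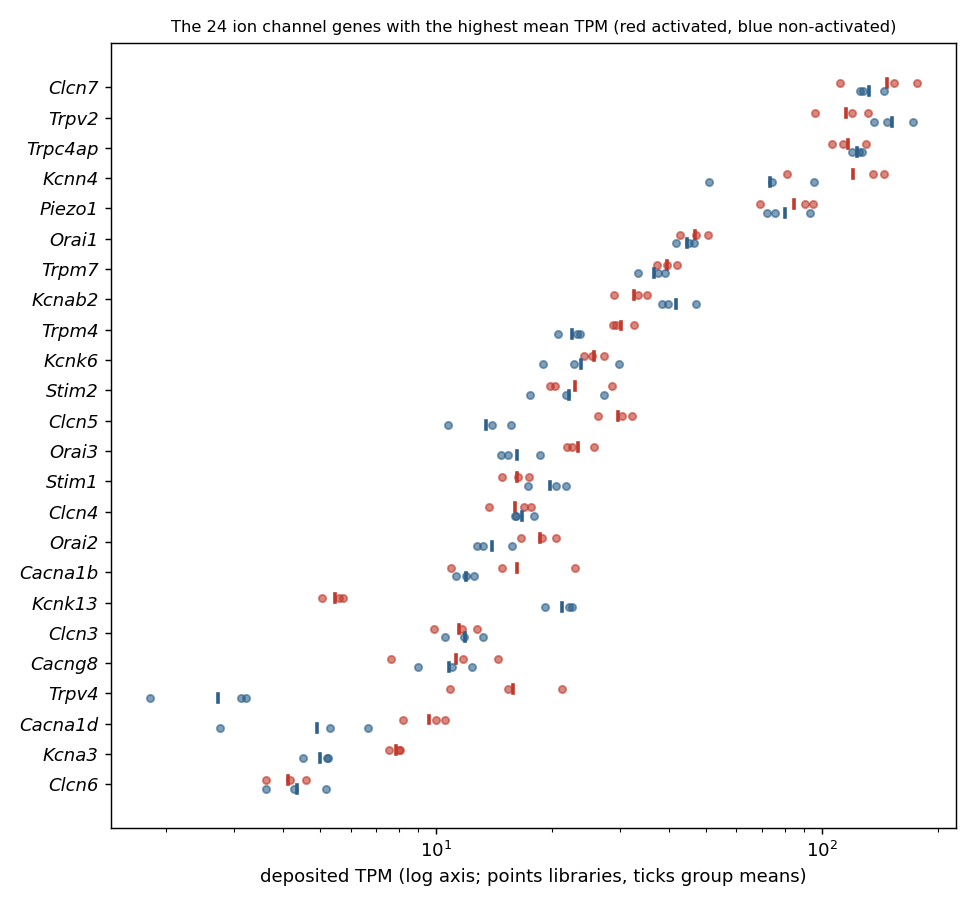
Deposited TPM (log axis) of the 24 genes with the highest mean TPM, with each library as a point and group means as ticks. Clcn7, Trpv2 and Trpc4ap lead, and Kcnk13, Trpv4 and Clcn5 show group means set apart.

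At the top of the level order, Clcn7, Trpv2, Trpc4ap, Kcnn4 and Piezo1 averaged 140, 134, 120, 97.0 and 82.3 TPM over the 6 libraries, and of these Trpv2 fell, Kcnn4 rose and the others did not pass.

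Positions were counted by chromosome, and their spread was not tested. On chromosome 7 lay 12 of the 47 genes (25.5%), against 7.98% of all tested genes and 13.3% of the 158 genes with a matching name. These 12 included Kcnn4, Trpm4, Orai3 and Trpm5, which rose, and Stim1, which fell. Cacng7 and Cacng8 are neighbours there, and neither passed. Other called genes lay elsewhere, among them Kcnk13 on chromosome 12 (99963149 to 100062682), Clcn5 on X (7153810 to 7319358), Kcnq5 on chromosome 1 (21398399 to 21962650), Kcnn1 on chromosome 8 (70843158 to 70865691) and Trpv4 on chromosome 5 (114622152 to 114658435), all in RefSeq coordinates on GRCm38.p6.

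Promoter sequences from RefSeq were matched by symbol for 38 of the 47 genes and were read over the 250 bases before the first listed start site. Both strands were searched for TGANTCA, an AP-1 motif, and for TGGAAA, the core of NFAT motifs; no base can belong to a match of both. AP-1 letters were in 0 of the 11 windows of genes that rose and 1 of all 38, against 6.87% of 27025 windows of all genes. NFAT core letters were in 1 of 11 and 6 of 38, against 18.7% of all windows. Neither set was in the 3 windows of genes that fell. The windows of 4 genes that rose, one each from 4 channel classes, are shown because these genes had the smallest adjusted p among called genes whose window lies wholly outside the annotated gene and that cleared the filter in every library, a choice made after their values were seen. They lie at chr1:21962651-21962900 on the minus strand (Kcnq5), chr14:30491157-30491406 on the minus strand (Cacna1d), chr7:127769565-127769814 on the plus strand (Orai3) and chrX:7319359-7319608 on the minus strand (Clcn5), in GRCm38.p6, and run 5′ to 3′ along each gene, with capitals marking the one NFAT core match, read on the opposite strand.
Kcnq5: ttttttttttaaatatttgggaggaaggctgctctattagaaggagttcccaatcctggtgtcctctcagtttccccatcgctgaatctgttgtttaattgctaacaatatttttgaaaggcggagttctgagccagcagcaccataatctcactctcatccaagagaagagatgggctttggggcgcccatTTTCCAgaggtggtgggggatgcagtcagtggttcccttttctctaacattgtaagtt
Cacna1d: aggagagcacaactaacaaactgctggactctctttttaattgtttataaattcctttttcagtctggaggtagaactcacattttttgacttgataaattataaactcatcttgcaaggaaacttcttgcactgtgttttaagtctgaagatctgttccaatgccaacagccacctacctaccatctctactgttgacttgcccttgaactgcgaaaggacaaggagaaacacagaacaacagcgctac
Orai3: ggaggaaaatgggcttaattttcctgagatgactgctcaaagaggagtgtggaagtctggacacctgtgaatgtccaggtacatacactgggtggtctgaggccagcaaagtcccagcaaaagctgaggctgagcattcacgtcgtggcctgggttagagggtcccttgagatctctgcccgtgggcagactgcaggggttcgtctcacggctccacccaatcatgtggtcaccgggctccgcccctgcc
Clcn5: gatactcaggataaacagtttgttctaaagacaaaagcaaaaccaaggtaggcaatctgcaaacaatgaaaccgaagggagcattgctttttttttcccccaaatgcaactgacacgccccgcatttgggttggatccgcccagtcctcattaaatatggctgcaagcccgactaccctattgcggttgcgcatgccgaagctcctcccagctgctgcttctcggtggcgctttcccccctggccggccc
The 4 windows differ in base composition, with 44.4%, 39.6%, 57.2% and 52.4% G and C in that order, around a median of 52% for all genes. The Cacna1d window is the poorest in G and C and holds neither motif.

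Genes that release, pump or read calcium were taken from a separate list, of which 58 could be tested. Of these, 12 rose (20.7%, against 15.9% of all genes), 9 fell (15.5%, against 11.7%) and 37 did not pass, with a median log2 fold change of 0.03. Of the 58, 1 cleared the low-count filter in every activated library but not in every non-activated one. The pump Atp2a3, which refills the endoplasmic reticulum, went from 44.6 ± 4.93 to 197 ± 16.8 CPM (SD, n = 3; edgeR adjusted p = 9.96e-06). The mitochondrial calcium uniporter pore Mcu was 2.59-fold higher. Tmem110, a partner of Stim1 at junctions of the endoplasmic reticulum with the cell surface, was 2.17-fold higher, and Plcg2, the phospholipase that makes the store-releasing messenger, 2.31-fold. The plasma membrane pump Atp2b2 rose from 0.185 ± 0.0729 to 6.24 ± 2.40 CPM (SD, n = 3), and its non-activated mean lay under the filter's cutoff of 0.412 CPM. Lower in activated cells were Asph (75.7 against 184 CPM), whose locus also encodes junctional calcium-handling proteins, the calcium channel beta subunit Cacnb4 (2.82 against 12.4), the kinase Camk2g (38.3 against 58.3), the calcineurin catalytic subunit Ppp3ca (78.3 against 113) and the calcineurin regulator Rcan3 (34.1 against 46.8).

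Of 46 tested channels, pumps and ion transporters outside these families, 9 rose (19.6%, against 15.9% of all genes), 5 fell (10.9%, against 11.7%) and 32 did not pass, with a median of 0.02. Of the 46, 3 cleared the low-count filter in every activated library but not in every non-activated one. Among those that rose, Clic4, a protein that shifts between soluble and membrane forms, was 2.24-fold higher, and Clic5 went from 0.419 ± 0.297 to 7.38 ± 2.76 CPM. The ATP-gated channel P2rx1 went from 0.138 ± 0.137 to 3.89 ± 1.20 CPM, and the stretch-related channel Tmem63b was 1.45-fold higher. The non-activated means of Clic5 and P2rx1 lay near or under the filter's cutoff of 0.412 CPM. Those that fell included the endolysosomal cation channels Tpcn1 (14.0 against 29.2 CPM) and Mcoln1 (59.5 against 80.7) and the potassium-chloride cotransporter Slc12a7 (6.88 against 13.8).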

How the data were processed

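RNA-seq was analysed in 6 libraries, 3 per group. Per the file headers, the authors deposited RSEM-style gene tables with an expected count, TPM, FPKM and length for each gene; FPKM was not used. Per the submitters' processing notes the build is GRCm38, although the files carry a human build's name. How RNA reads were aligned is not given in those sources. Total RNA gave single reads, per the labels' protocols, with no word on strand. Symbols were matched by gene ID for 41597 of 41813 genes, and the others held at most 0.0452% of a library's counts.

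Expected counts were rounded and tested in edgeR 4.0.16 (R 4.3.3): filterByExpr, TMM, glmQLFit and glmQLFTest on group, Benjamini-Hochberg adjustment over 13946 genes, threshold 0.05, two-sided. The SE is the log2 fold change over the root of F. The common biological coefficient of variation was 16.9%. Scripts were tested on simulated data. Counting intervals are exact binomial and cover counting error only. Alternatives used DESeq2 1.42.0 and limma 3.58.1 on log2(deposited TPM + 1), and a block.

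Titles share replicate numbers. Deviations from group means correlated at 0.488, 0.432 and 0.235 for the same number and at -0.404 to 0.05 otherwise. Deviations cancel out within a group, so positive values for the same number push the others down. Libraries of the same number were thus more alike, but what a shared number marks is not stated. Calls come from the fit on group alone, which leaves the numbers out, unless the block is named.

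Members and lists were chosen with earlier results of these data known. Named were every called member, the best expressed of each class, 17 genes whatever their result, those beside the count floor, and the 5 listed genes of smallest p in each direction. Some genes that meet this rule are not reported here.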

Additional observations from a re-analysis of the deposited data

How the results depend on the processing

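Of the 18 called genes, 11 (10 higher, 1 lower) kept call and direction under all 13 alternatives, among them Kcnk13, Clcn5, Kcnq5, Kcnn1, Trpm5, Trpv4, Cacna1h, Orai3, Kcna3 and Trpm4. Of these, Trpm5 and Cacna1h cleared the low-count filter through the activated libraries alone. Most alternatives kept the set of genes passed by that filter, so they do not test that step. Of 611 results of single genes under these alternatives, 536 kept direction and side of the threshold, 38 lost the call, 11 gained one and 26 changed sign, 0 of them in called genes. The 9 genes that changed sign did not pass: without 1 library, Clcn3 ran from -0.115 to 0.079 on the log2 scale, Clcn4 from -0.134 to 0.028, Clcn6 from -0.027 to 0.164, Clcn7 from -0.039 to 0.297, Cacng7 from -0.53 to 0.58, Cacng8 from -0.18 to 0.27, Orai1 from -0.014 to 0.095, Cacna1b from -0.054 to 0.099 and Kcnd1 from -0.69 to 0.23. Clcn3 was also -0.011 with DESeq2 size factors, -0.012 with DESeq2, -0.020 with no filter, -0.001 with the block, -0.048 and -0.051 on the TPM scales and -0.084 without both libraries numbered 1, and Clcn6 was -0.057 and -0.067 on these scales. Without both libraries numbered 1, Clcn4 was at 0.014, Cacng7 at -0.49 and Cacng8 at -0.005. Genes higher numbered 10 and lower 1 on log2(TPM + 1) and on log2(TPM + 0.1), and 17 and 6 with the replicate block, which gave 5 further calls, 4 of them given beside the genes above, and lost none. With DESeq2 size factors 14 were higher and 4 lower, and both DESeq2 and the fit with no filter gave 15 higher and 4 lower. The count higher ranged from 12 to 15 and the count lower from 1 to 3 when 1 library was left out. The count lower was 1 without activated replicate 3 and 1 without non-activated replicate 2. Without both libraries numbered 1, chosen after seeing the data, 14 were higher and 1 lower. Over all genes, 3848 calls became 2663 to 3640 without 1 library, 5184 with the block and 2664 on log2(TPM + 0.1). The median log2 fold change of all genes was 0.006, and lay between -0.018 and 0.015 under the alternatives. Depth limits the genes with few counts in a group, and the ratios of Cacna1h, Trpm5 and Cacna1g have wide counting intervals. The cause of the lost calls was not tested.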
